A study of Mus musculus with 24 samples.

Results

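The comparison set 3 libraries from Relapsed LLC1 tumours against 3 libraries from Chronic IFNG LLC1 tumours, 6 of the 24 libraries in the series. LLC1 is the Lewis lung carcinoma line, a transplantable mouse tumour line that grows under the skin or in the lung of mice. Relapsed LLC1 is the line that relapsed after immune checkpoint blockade, and Chronic IFNG LLC1 is the line exposed to prolonged, low-level interferon gamma (IFNG). The unmodified Parental LLC1 line, also with 3 libraries, is given beside them. Lines of all 3 kinds were injected into mice, tumours were taken at day 15, red blood cells were lysed, and live CD45-negative cells were sorted, a gate meant to leave leukocytes out, before RNA was extracted. The labels enter no treatment for any of these tumours, and they give neither the dose or place (culture or mouse) of IFNG exposure nor the agent used for blockade. The remaining 15 libraries come from KP, a second mouse lung cancer line, with its own chronic IFNG group and 3 relapse groups. All 31618 genes in the LLC1 table were read, and the 10581 that passed a filter on low values were tested.

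IFNG is a cytokine made mainly by T cells and natural killer cells. It binds the receptor IFNGR1/IFNGR2, the kinases JAK1 and JAK2 are activated, and transcription factors then enter the nucleus and switch on IRF1, guanylate-binding proteins, immunity-related GTPases, chemokines such as Cxcl10 and the machinery that loads peptides on MHC class I molecules. Antiviral genes shared with type I interferon are also induced. Interferon signalling that persists in tumour cells has been linked to resistance to checkpoint blockade.

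The values deposited are on a log2 scale after a variance-stabilising transformation. Levels in the text are normalised counts, which were back-calculated from those values, and can be compared between libraries but not between genes. Log2 differences are relapsed minus chronic IFNG on the deposited scale, which is flattened at low counts, so that they are smaller than the log2 of the fold for weakly expressed genes. Estimated depth was 20.4 to 24.3 M reads in relapsed libraries and 13.3 to 18.5 M in chronic IFNG libraries. Genes with any read numbered 22104 to 22661 in relapsed libraries and 23495 to 26474 in chronic IFNG libraries. The design text calls the libraries biological replicates, but the labels do not say whether each came from its own animal, so p-values measure the spread between these libraries. Epcam, Cdh1 and Nkx2-1, which mark epithelium and lung lineage, were at most 1.79, 3.47 and 1.18 normalised counts in any relapsed library, and at most 25.1, 16.8 and 7.51 in any chronic IFNG library. Vim, which encodes the intermediate filament vimentin of mesenchymal cells, had 58898, 64913 and 65268 normalised counts in relapsed libraries and 79019.7, 79542 and 84447 in chronic IFNG libraries. The line, although derived from a lung carcinoma, thus had the defining lung epithelial markers at or near 0; Krt8, Krt18 and Hopx of that list were expressed and rose (0.55, 0.61 and 0.79). Of the leukocyte genes, Ptprc (CD45) had 17.8, 67 and 48.7 normalised counts in relapsed libraries and 6.68, 21 and 22.1 in chronic IFNG libraries, and Cd3e was below 1 in each relapsed library and at most 5.41 in the others.

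At an adjusted p below 0.05 (limma, Benjamini-Hochberg), 5503 of the 10581 tested genes differed, 52% of them. Relapsed tumours were higher for 3337 genes (31.5%) and lower for 2166 (20.5%). This split depends on scaling: when each library was centred on its own median, 2701 genes were higher and 2776 lower, so that the higher share of the calls was 49.3% in place of 60.6%. Large differences ran mostly one way under the deposited scaling, with 154 genes (1.46%) lower by at least 1 log2 unit and 68 (0.643%) higher by as much. In 6417 genes (60.6%) the 3 relapsed values all lay above or all lay below the 3 chronic IFNG values. With a background this broad, a gene list stands out here only where the share of its members called lies far from 31.5% and 20.5%.

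Interferon-induced genes were lower in relapsed tumours, across both the IFNG list and the antiviral list. Of 28 tested genes of the IFNG response, 20 fell (71.4%, against 20.5% of all genes) and 4 rose, with a median log2 difference of -0.94, against 0.04 over all tested genes. Of 42 tested antiviral interferon-stimulated genes, 35 fell (83.3%) and 1 rose, with a median of -0.57. Nucleic acid sensors of the innate response gave 9 lower and 1 higher of 13. A further 11 of the 39 IFNG genes and 6 of the 48 antiviral genes were below the filter and were not tested.

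Irf1, a transcription factor induced early by IFNG, had 1385, 1418 and 1381 normalised counts in relapsed libraries and 2318, 2977 and 3132 in chronic IFNG libraries. The groups did not overlap, and chronic IFNG library 1 was the lowest of its group. The log2 difference was -0.81 ± 0.09 (SE, n = 3 each; limma adjusted p = 3.43e-05), a level 2.01-fold lower. Cxcl10, a chemokine that draws CXCR3-bearing T cells, had 184, 199 and 143 normalised counts in relapsed libraries, against 892, 2053 and 1756 in chronic IFNG libraries. Each relapsed library was far below the lowest chronic IFNG library, and the fold was 8.93 (-1.78 ± 0.24 SE, adjusted p = 0.000146).

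Among the effectors, Gvin1, a very large interferon-inducible GTPase, was almost silent in relapsed libraries, with 64.5, 28 and 0 normalised counts, against 560.0, 1879 and 2475 in chronic IFNG libraries. Its log2 difference was -2.49 (adjusted p = 0.000106). Iigp1, an immunity-related GTPase that attacks parasite vacuoles, had 277, 234 and 125 normalised counts in relapsed libraries, against 901, 2032 and 2585 in chronic IFNG libraries. The same order was seen for Nos2, the inducible nitric oxide synthase, at 267, 463 and 577 in relapsed libraries and 1524, 2856 and 2203 in chronic IFNG libraries. Gbp2 and Gbp6, guanylate-binding proteins named after their values were seen, were 3.01-fold and 7.25-fold lower. All 5 were without overlap between groups, as were 60.6% of all tested genes. Chronic IFNG library 1 was the lowest of its group in each of the 5. The guanylate-binding proteins, the immunity-related GTPases and Gvin1 belong to families of near-identical copies, so that the sharing of reads among copies is uncertain. Of the 4 list members that rose, Casp1 and Casp4 encode inflammatory caspases (log2 differences 0.26 and 0.60), Gch1 makes the cofactor of nitric oxide synthase (0.53), and Serpina3g is a serine protease inhibitor (0.60).

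In the antiviral list, Ifit3, which binds foreign RNA with its partner Ifit1, had 194, 202 and 149 normalised counts in relapsed libraries, against 1159, 2418 and 2177 in chronic IFNG libraries. It was 10.6-fold lower (-2.0 ± 0.23 SE, adjusted p = 5.71e-05), although reads may be shared with its copy Ifit3b. Rsad2 (viperin, which makes a chain-terminating nucleotide) had 286, 307 and 180.0 in relapsed libraries and 737, 1796 and 1809 in chronic IFNG libraries. Ifit1 had 404, 342 and 243 in relapsed libraries and 869, 1624 and 1474 in chronic IFNG libraries. Both fell without overlap, with log2 differences of -1.46 and -1.23. The DNA sensor Ifi204 had a log2 difference of -1.74, Ifi205 -1.25, Zbp1 (a sensor of left-handed nucleic acids) -1.10, the RNA sensor Ddx58 (RIG-I) -0.57 and Tmem173 (STING) -0.48, each below an adjusted p of 0.05. The member that rose was Ifitm1, a membrane protein that blocks virus entry, at 736 normalised counts on average in relapsed libraries and 356 in chronic IFNG libraries.

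**Figure D1:**
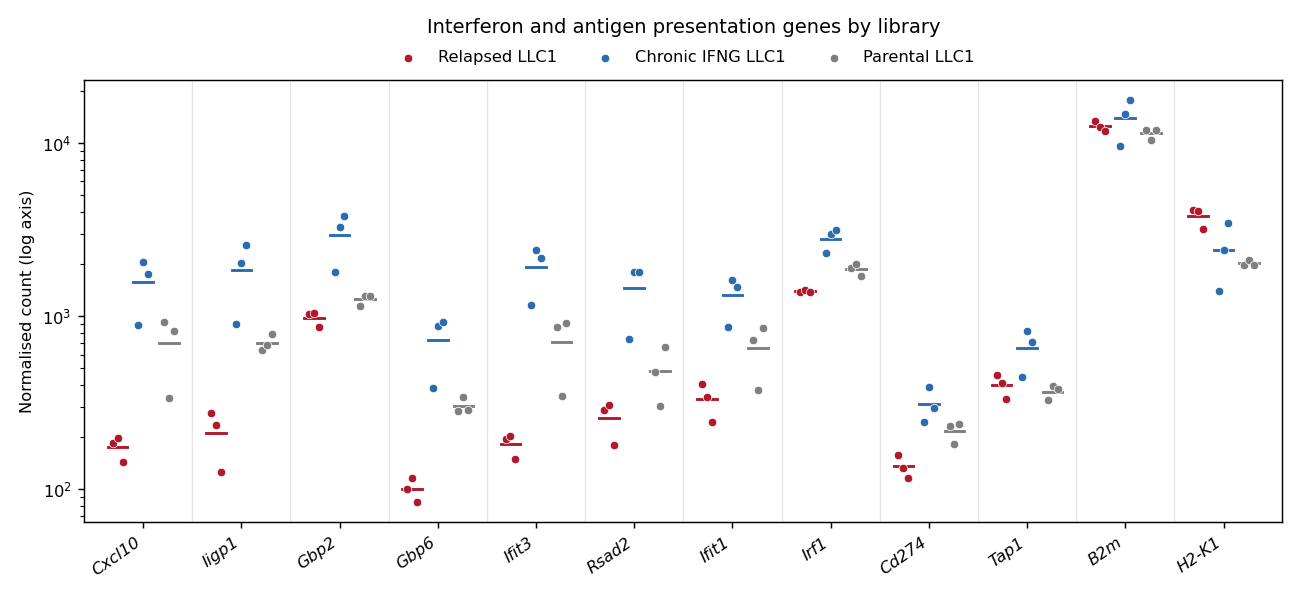
Normalised counts on a log axis for 12 interferon-response genes in each library of Relapsed LLC1, Chronic IFNG LLC1 and Parental LLC1 tumours; points are libraries and bars are group means (n = 3). Cxcl10, Iigp1, Gbp2, Ifit3 and Irf1 lie lower in all relapsed than in all chronic IFNG libraries, while B2m and H2-K1 overlap between these groups.

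Genes for the receptor, kinases and regulators of the pathway gave differences in both directions. Ifngr1, the ligand-binding receptor chain, had 2561, 2417 and 2569 normalised counts in relapsed libraries and 2036, 1899 and 2096 in chronic IFNG libraries, which was higher by 0.27 (adjusted p = 0.00223). Jak1 was higher by the same amount (0.27, adjusted p = 0.00205), while Ifngr2 (-0.099, adjusted p = 0.117), Jak2 (-0.014, 0.894) and the feedback inhibitor Socs1 (-0.048, 0.525) did not pass the test. Ifngr2 was called lower under median centring (-0.15, adjusted p = 0.0314), quantile normalisation (-0.14, 0.0337) and without relapsed library 2 (-0.14, 0.0398). Of 20 tested receptor, kinase and transcription factor genes, 4 rose (Ifngr1, Jak1, Ifnar2 and Pias1) and 5 fell, among them Stat3, Irf1, Irf2 and Irf9. These shares were 20% and 25%, against 31.5% and 20.5% of all genes. The count of higher genes was 2 in place of 4 under median centring, and also when chronic IFNG library 2 or any single relapsed library was left out.

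Parental tumours lay between the groups for Cxcl10, Irf1 and Ifit3. Cxcl10 averaged 176 ± 28.9 normalised counts in relapsed libraries, 1567 ± 603 in chronic IFNG libraries and 697 ± 314 in parental libraries (SD, n = 3 each). In the same order of groups, Irf1 averaged 1394 ± 20.4, 2809 ± 432 and 1865 ± 155, and Ifit3 182 ± 28.7, 1918 ± 668 and 710.2 ± 318. The relapsed mean was thus the lowest for each of these genes. RNA from 9 predicted genes in satellite-like repeats at the start of chromosome 9 also differed between libraries: it summed to 818, 849 and 453 normalised counts in relapsed libraries 1 to 3, 4072, 72688 and 50913 in chronic IFNG libraries 1 to 3, and 62422, 17482 and 23678 in parental libraries 1 to 3. Chronic IFNG library 1 was low in this RNA and low in interferon genes, and the part of this RNA in the interferon result was not tested. Without that library, 22 of 29 tested IFNG genes and 39 of 44 antiviral genes were lower, and the medians were -1.12 and -0.63.

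The promoters of the interferon genes are shown because the letters bound by interferon-activated factors can be read in them. Windows of 250 bases before to 50 bases after each gene's start, from the RefSeq GRCm38.p6 assembly, were searched on both strands for an ISRE-like motif, GAAA followed by any 2 bases and GAAA, and a GAS-like motif, TTCNNNGAA. The ISRE-like letters stood in 12 of the 20 IFNG genes with a promoter and in 15 of 32 antiviral genes, against 3.99% of all 27025 genes with a promoter. The GAS-like letters stood in 9 of 20 and 7 of 32, against 9.55%. Windows of 60 bases follow, written 5′ to 3′ on the gene's strand, with the motif in capitals; a motif on the opposite strand reads as its reverse complement, TTTC, any 2 bases and TTTC. They are ISRE-like except for Irf1, which is GAS-like. A match describes the letters only, not binding.
Cxcl10, chr5:92349068-92349127, minus strand: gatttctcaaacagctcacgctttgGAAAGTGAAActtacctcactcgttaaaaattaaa
Gbp2, chr3:142620579-142620638, plus strand: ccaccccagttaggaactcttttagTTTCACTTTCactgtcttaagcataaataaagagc
Ifit3, chr19:34583365-34583424, plus strand: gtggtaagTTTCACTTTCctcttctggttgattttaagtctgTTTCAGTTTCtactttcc
Ifit1, chr19:34640769-34640828, plus strand: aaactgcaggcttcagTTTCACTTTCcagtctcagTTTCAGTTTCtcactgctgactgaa
Rsad2, chr12:26456538-26456597, minus strand: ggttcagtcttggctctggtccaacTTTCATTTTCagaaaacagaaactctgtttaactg
Irf1, chr11:53769898-53769957, plus strand: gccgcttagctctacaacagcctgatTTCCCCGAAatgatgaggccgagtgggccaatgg
The 2 Ifit promoters each held the ISRE-like letters at 2 places in the window.

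Genes of MHC class I presentation did not fall as a block. Of 20 tested genes 7 fell and 2 rose, and the median was -0.16. B2m, the invariant light chain, had 13387, 12428 and 11743 normalised counts in relapsed libraries and 9592, 14745 and 17697 in chronic IFNG libraries, which overlapped (-0.12, adjusted p = 0.587). H2-K1, a classical heavy chain, had 4106, 4076 and 3171 in relapsed libraries and 1395, 2405 and 3446 in chronic IFNG libraries. Its difference was 0.62 ± 0.21 SE (adjusted p = 0.0271), with overlap between the groups. The call was lost without chronic IFNG library 1 (0.33, adjusted p = 0.0523), chronic IFNG library 2 (0.0532), relapsed library 1 (0.0834) or relapsed library 2 (0.0799), under quantile normalisation (0.0523), in a fit on the 2 groups alone (0.0519) and with no filter (0.0598), and heavy-chain copies may share reads. H2-D1 differed by 0.17 (adjusted p = 0.446). Tap1, a subunit of the peptide transporter, fell (-0.40, adjusted p = 0.0143), with 457, 410.2 and 331 in relapsed libraries and 448, 816 and 705 in chronic IFNG libraries, which overlapped. It was no longer called without chronic IFNG library 2 (adjusted p = 0.058) or relapsed library 3 (0.0587). The transactivator Nlrc5 (-0.38, adjusted p = 0.11) and the immunoproteasome subunit Psmb8 (-0.10, 0.513) did not pass the test, and Psmb9 was below the filter. When chronic IFNG library 1 was left out, 11 genes of the list fell and 1 rose, with B2m at -0.36 (adjusted p = 0.009) and Nlrc5 at -0.62 (0.00417).

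Ligands and enzymes that restrain T cells moved in both directions, with 5 of 13 tested genes higher (38.5%) and 4 lower (30.8%). These shares are not far from the 31.5% and 20.5% of all genes. Cd274, which encodes PD-L1, had 158, 133 and 116 normalised counts in relapsed libraries and 246, 388 and 295 in chronic IFNG libraries. It was 2.28-fold lower without overlap (-0.48 ± 0.08 SE, adjusted p = 0.000611). The enzymes that turn extracellular ATP into adenosine, a suppressor of T cells, went the other way. Nt5e (CD73), which makes adenosine from AMP, had 975, 1015 and 1094 normalised counts in relapsed libraries, against 84.7, 91.6 and 111 in chronic IFNG libraries. It was 10.8-fold higher (1.67 ± 0.06 SE, adjusted p = 4.87e-08). Entpd1 (CD39), which makes AMP from ATP and ADP, had 223, 250.5 and 335 in relapsed libraries and 22, 44.1 and 14.2 in chronic IFNG libraries, 10.1-fold higher. Both groups were apart for each enzyme, and galectin 3 (Lgals3) was also higher (1.63-fold), while the poliovirus receptor Pvr (-0.60) and galectin 9 (Lgals9, -0.48) fell. Entpd1 is also carried by leukocytes, whose summed markers were 96.1 to 111 CPM (counts scaled to the library total) in relapsed libraries and 37.2 to 47.5 in chronic IFNG libraries. Most of that sum in relapsed libraries was Itgb2, 1 of 2 tested markers of the list and the one called; without it the sums were 24.2 to 38.5 CPM in relapsed libraries and 15.5 to 25.6 in chronic IFNG libraries, which overlapped. The part of such cells in this result was not tested. In bulk samples, fewer cells of a type and less RNA per cell cannot be told apart.

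Cytokines and their receptors included some of the largest changes. Il33, an alarmin released from damaged cells, had 852, 938 and 1269 normalised counts in relapsed libraries, against 8090.5, 7779 and 7969 in chronic IFNG libraries. Its receptor chain Il1rl1 (ST2) fell as well (-1.75, 3.68-fold lower), and Il33 was 7.79-fold lower with no overlap between groups (-2.51, adjusted p = 5.44e-07). Ccl11, an eosinophil chemokine, had 31.2, 42.5 and 52.1 in relapsed libraries and 862, 653 and 545 in chronic IFNG libraries, 16.4-fold lower. The monocyte chemokines Ccl2 (-0.87) and Ccl7 (-1.15) and the cytokine Lif (-1.18) also fell, so that 6 of 13 tested chemokines and cytokines were lower and 1 was higher. Without chronic IFNG library 1 the count of lower genes was 10 of 17 tested. Genes that act in inflammasomes and IL-1 signalling gave 5 higher, among them Casp4, Casp12 and Il1r1 (0.60, 0.56 and 0.57), and 3 lower of 10. Targets and parts of NF-kB were split evenly, with 6 higher and 6 lower of 21 (28.6% each, against 31.5% and 20.5% of all genes). Vcam1, an adhesion molecule for leukocytes, was 2.02-fold higher. Tnfrsf1b, the second TNF receptor, had 222, 293 and 325 normalised counts in relapsed libraries, against 25.3, 26.9 and 46.9 in chronic IFNG libraries. Of 12 tested complement genes 10 fell and 1 rose (median -0.73). C1s1, C4b, Serping1 and C3 fell (-1.21, -1.17, -0.96 and -0.53), and Masp1 rose (0.32).

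On the deposited log2 scale, the largest fall of any gene with an ordinary symbol was in the extracellular matrix. By fold, genes almost silent in relapsed libraries fell further, among them Agtr2 (519-fold) and H19 (50.5-fold), both given below. Tnc (chr4:63959785-64047015 on GRCm38), the anti-adhesive glycoprotein tenascin C, had 1458, 2072 and 1934 normalised counts in relapsed libraries, against 32614, 29221 and 36380.0 in chronic IFNG libraries. It was 18-fold lower (-3.85 ± 0.14 SE, adjusted p = 4.87e-08). The small proteoglycan biglycan (Bgn) had 999, 716 and 816 in relapsed libraries and 8775, 8273 and 8661 in chronic IFNG libraries, 10.2-fold lower. Both groups were tight and far apart for these genes, and no overlap was a condition of naming them among the lowest. The chains of type I collagen fell together: Col1a1 had 1020.1, 976 and 1083 in relapsed libraries and 6348, 6114 and 4415 in chronic IFNG libraries. For Col1a2 the values were 554, 923 and 534 in relapsed libraries and 4147, 5431 and 5034 in chronic IFNG libraries. Col4a5, a basement membrane collagen chain, had 292, 253 and 239 in relapsed libraries and 4759, 2937 and 2315 in chronic IFNG libraries, and Cilp, a cartilage matrix protein, had 588, 485 and 443 in relapsed libraries and 6449, 4122 and 2549 in chronic IFNG libraries. In both, chronic IFNG library 1 was the highest and library 3 the lowest of their group, and every relapsed library lay below them. Fn1 (fibronectin), named after its values were seen, had 111571, 98766 and 102553 in relapsed libraries and 270094, 243493 and 241711 in chronic IFNG libraries, a smaller fold of 2.41.

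Counted by list, 14 of 20 tested fibrillar collagens and assembly enzymes fell and 3 rose (median -0.83), 11 of 15 basement membrane genes fell and 1 rose (-0.44), and 18 of 27 matricellular proteins and proteoglycans fell and 4 rose (-0.74). Of 19 tested matrix proteases and inhibitors 15 fell and 0 rose (-0.56). Mmp12, the metalloelastase, had 568, 672 and 927 normalised counts in relapsed libraries, against 8994, 9426 and 9861 in chronic IFNG libraries, 13.1-fold lower (-3.08, adjusted p = 4.87e-08). Mmp9, a gelatinase, had 108, 146 and 190.3 in relapsed libraries and 1055, 1289 and 1304 in chronic IFNG libraries, 8.21-fold lower. The gelatinase Mmp2 (-1.24), the inhibitor Timp1 (-0.94) and stromelysin Mmp3 (-0.72) fell less. Enpp2 (autotaxin), which makes lysophosphatidic acid, had 779, 723 and 835 in relapsed libraries and 9095, 7626 and 8859 in chronic IFNG libraries, 10.9-fold lower, and Mrc2, which takes up collagen into cells, fell with a log2 difference of -2.03. Mmp12 and Il33 had still higher parental means, at 18238 and 14817 normalised counts.

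A few matrix genes ran against this. Lama5, the alpha 5 chain of laminin, had 13959.5, 13032 and 12308 normalised counts in relapsed libraries, against 3669, 4749 and 4619.8 in chronic IFNG libraries, 3.01-fold higher (1.49, adjusted p = 8.79e-07). Ogn, the small proteoglycan osteoglycin, was named after its values were seen and had 1466, 1564 and 1273 in relapsed libraries and 265, 284 and 380.2 in chronic IFNG libraries, with 71.8, 67.3 and 148 in parental libraries. Both rose without overlap, which for Lama5 was a condition of being named among the highest.

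Markers of fibroblasts fell as well, but that list itself holds matrix genes such as Dcn, Lum, Postn and Col6a3. The marker result is therefore not separate from the matrix result. Of 13 tested fibroblast markers 12 fell and 0 rose (median -0.92), and the summed level of the list was 2435, 2372 and 2252 CPM in relapsed libraries, 7553, 5701 and 5205 in chronic IFNG libraries and 2581 to 3310 in parental libraries. Thy1 had 23.7, 44.3 and 31.5 normalised counts in relapsed libraries and 112, 251 and 201 in chronic IFNG libraries, and Pdpn had 22.4, 32.0 and 24.5 in relapsed libraries and 118, 184 and 179.9 in chronic IFNG libraries. Pdgfra, the receptor that defines many fibroblasts, did not follow: it had 5859, 5856 and 5852 in relapsed libraries and 7650.0, 5483 and 4967 in chronic IFNG libraries, which overlapped. The part of fibroblasts among the sorted cells was not tested. Summed endothelial markers were 63.5 to 67.8 CPM in relapsed libraries and 81.9 to 85.5 in chronic IFNG libraries. Of 4 tested members of that list, however, 2 rose and 1 fell (median 0.23). Summed neutrophil markers were 16.7 to 23.3 CPM in relapsed libraries and 51.8 to 65.1 in chronic IFNG libraries. That sum includes Mmp9, the 1 of 2 tested members that fell. The other, Lcn2, rose (0.25), a call that was lost under median centring. The lower sum is therefore not a fall of the list as a whole.

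**Figure D2:**
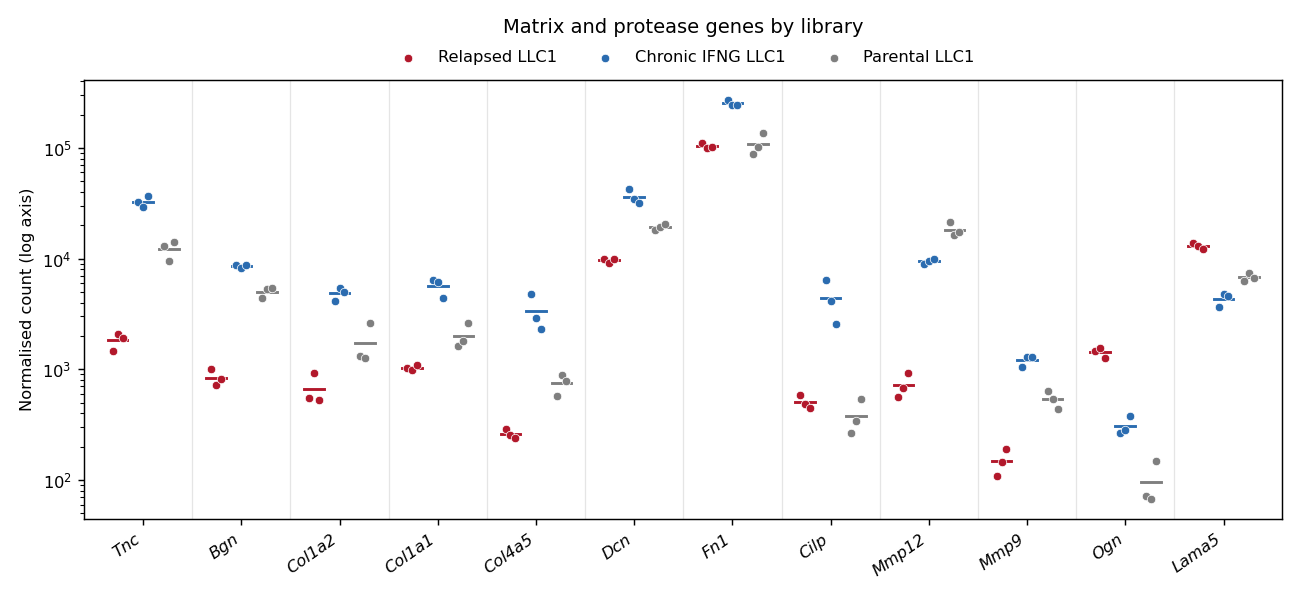
Normalised counts on a log axis for 12 matrix and protease genes in each library of Relapsed LLC1, Chronic IFNG LLC1 and Parental LLC1 tumours; points are libraries and bars are group means (n = 3). Tnc, Bgn, Col1a1 and Mmp12 lie lower in all relapsed than in all chronic IFNG libraries, and Ogn and Lama5 lie higher.

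Genes of cell division were higher in relapsed tumours with hardly an exception. All 35 tested genes of mitosis and the spindle rose (100%, against 31.5% of all genes; median 0.73), as did 34 of 39 genes of the G1/S transition and DNA replication (median 0.37), among which the transcription factor E2f1 fell (-0.17). Ccna2, cyclin A2, had 3081, 3146 and 2886 normalised counts in relapsed libraries, against 985, 909 and 1229 in chronic IFNG libraries. It was 2.92-fold higher (1.23 ± 0.09 SE, adjusted p = 2.01e-06). Kif23, a kinesin of cytokinesis, had 1715, 1773 and 1586 in relapsed libraries and 538, 430.5 and 532 in chronic IFNG libraries, 3.38-fold higher, and Cenpe, a kinetochore kinesin, had 3203, 2814 and 2746 in relapsed libraries and 1061, 1034 and 1157 in chronic IFNG libraries, 2.69-fold higher. Every relapsed library lay above every chronic IFNG library for these genes, which for Ccna2 and Kif23 was a condition of being named among the highest. Ect2, which places the cleavage furrow, and Kif11, which separates spindle poles, were 3.05-fold and 2.49-fold higher. The proliferation marker Mki67, named after its values were seen, had 8724, 8275 and 7918 in relapsed libraries and 3596, 3865 and 4257 in chronic IFNG libraries. Of the replication genes, the flap nuclease Fen1 had 1606, 1445 and 1546 in relapsed libraries and 626, 746 and 883 in chronic IFNG libraries, and Mcm2, Rrm2, Pole and Chaf1a had log2 differences of 0.68, 0.69, 0.69 and 0.65. Parental means lay between the groups for Ccna2 (3037, 1041 and 1639 in relapsed, chronic IFNG and parental libraries).

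Histone genes expressed in S phase rose, with 31 of 33 higher and 0 lower (median 0.87). Hist2h2aa2 had 7476, 8502 and 8185 normalised counts in relapsed libraries, against 2559.8, 2603 and 2972 in chronic IFNG libraries, 2.97-fold higher. The linker histone Hist1h1b, named after its values were seen, had 3315, 3832 and 3592 in relapsed libraries and 1339.8, 1378 and 1479 in chronic IFNG libraries. The variants H2afx, which is phosphorylated at DNA breaks, and H2afz were 3.43-fold and 2.49-fold higher. Histone genes are near-identical copies of one another, so that their individual counts are uncertain. Chromosome 3, most of whose genes were higher, carries some of these genes; without it, 24 of 26 histone and 32 of 32 mitosis genes were higher.

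Targets of p53, which halts division or removes damaged cells, moved the opposite way. Of 30 tested targets 17 fell and 4 rose (median -0.29). Cdkn1a, the p21 inhibitor of cyclin-dependent kinases, had 276, 354 and 368 normalised counts in relapsed libraries, against 1829.7, 2027 and 2169.8 in chronic IFNG libraries. It was 6.05-fold lower without overlap (-1.71 ± 0.09 SE, adjusted p = 2.11e-07). Ccng1, cyclin G1, had 878, 1139 and 878 in relapsed libraries and 4569, 4206 and 4631 in chronic IFNG libraries, 4.63-fold lower, and Trp53inp1, a p53-induced nuclear protein, was 5.86-fold lower. The death receptor Eda2r (-1.31) and the spindle protein Psrc1 (-1.30) fell as well. Mdm2, the ubiquitin ligase that p53 induces to limit itself, was named after its values were seen and had 1798, 1854 and 1906 in relapsed libraries and 3870.3, 4469 and 3973 in chronic IFNG libraries. Trp53 itself did not pass the test (-0.081, adjusted p = 0.234). For Cdkn1a the parental mean was higher still (332, 2009 and 2561 in relapsed, chronic IFNG and parental libraries).

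**Figure D3:**
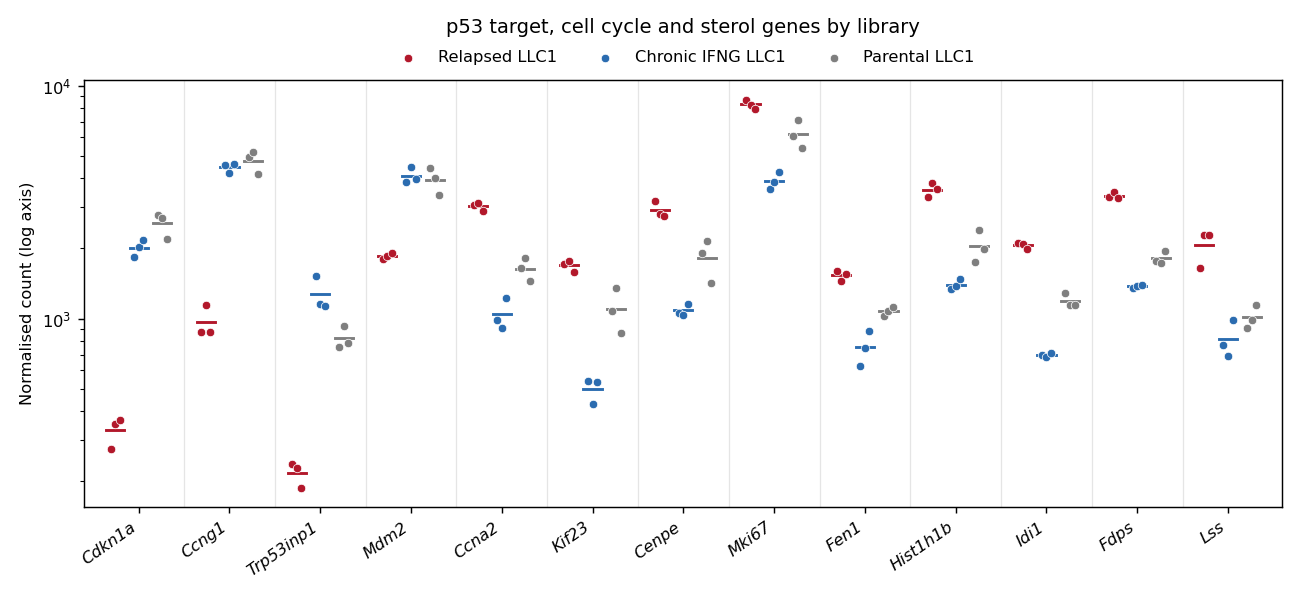
Normalised counts on a log axis for p53 targets, cell division genes, a histone gene and sterol genes in each library of Relapsed LLC1, Chronic IFNG LLC1 and Parental LLC1 tumours; points are libraries and bars are group means (n = 3). Cdkn1a, Ccng1, Trp53inp1 and Mdm2 lie lower in all relapsed than in all chronic IFNG libraries, and Ccna2, Mki67, Fen1, Hist1h1b, Idi1, Fdps and Lss lie higher.

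Sterol and fatty acid synthesis was the metabolic list that moved most evenly. Of 26 tested genes 22 rose (84.6%) and 0 fell, with a median of 0.49; 1 fell under median centring and 2 under quantile normalisation. Idi1, which isomerises the building block of isoprenoids, had 2112, 2092 and 1993 normalised counts in relapsed libraries, against 694, 682 and 709 in chronic IFNG libraries. It was 2.97-fold higher (1.14 ± 0.05 SE, adjusted p = 7.79e-08). Fdps, which joins isoprenoids into farnesyl diphosphate, had 3329.6, 3485 and 3304 in relapsed libraries and 1346, 1382 and 1391 in chronic IFNG libraries. Lss, which closes the sterol rings, had 1647, 2278 and 2289 in relapsed libraries and 767, 693 and 989 in chronic IFNG libraries. The groups were apart in all 3 genes, as in 60.6% of all tested genes. Elovl6, which lengthens fatty acids, was 2.26-fold higher. Sqle, squalene epoxidase, and Hmgcs1, the synthase that feeds the pathway, were 1.93-fold and 1.35-fold higher, both named after their values were seen. Acaca, Acly, Scd2 and the regulator Srebf1 did not pass the test.

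Promoters of these genes are shown for the letters of the sterol regulatory element and the CCAAT box, which are bound by SREBP and NF-Y factors. The SRE-like letters TCACNCCAC stood in 1 of 17 sterol genes with a promoter, against 1.44% of all genes, and CCAAT stood in 15 of 17, against 41.1%. In the mitosis list CCAAT stood in 21 of 29. Capitals mark the SRE-like letters in Hmgcs1 and CCAAT, read on the opposite strand as ATTGG, in the other 3.
Hmgcs1, chr13:119690188-119690247, plus strand: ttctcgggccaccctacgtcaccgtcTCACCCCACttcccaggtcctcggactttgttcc
Idi1, chr13:8885546-8885605, plus strand: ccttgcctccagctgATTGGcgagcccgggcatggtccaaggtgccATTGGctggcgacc
Lss, chr10:76531515-76531574, plus strand: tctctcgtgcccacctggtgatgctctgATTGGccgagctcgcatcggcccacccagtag
Kif23, chr9:61946800-61946859, minus strand: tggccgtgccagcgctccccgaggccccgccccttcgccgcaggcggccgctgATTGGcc
Idi1 held the letters at 2 places. Among all tested genes with a promoter, 43.4% held CCAAT.

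Other metabolic lists moved less. Of 30 tested nuclear genes of oxidative phosphorylation 20 rose and 2 fell (median 0.20), and of 27 proteasome genes 17 rose and 0 fell (0.19), or 14 of 24 without chromosome 3. Genes controlled by the antioxidant factor NRF2 gave 13 higher and 5 lower of 25: the glutathione transferase Gsta4 rose (0.67), while Hmox1, which breaks down haem, and Slc7a11, which imports cystine, fell (-0.87 and -0.78). Hypoxia-induced genes gave 11 lower and 4 higher of 25, with Vegfa (-0.80), Hilpda (-0.87) and the mitophagy receptor Bnip3 (-0.73) lower and the carbonic anhydrase Car9 4.23-fold higher; without chronic IFNG library 2 or relapsed library 1, 7 were lower. In glycolysis, 5 rose (23.8%) and 6 fell (28.6%) of 21, against 31.5% and 20.5% of all genes. The glucose transporter Slc2a1 was at -0.77 and the lactate transporter Slc16a1 at 0.67. Without chronic IFNG library 1 or 2, or relapsed library 2 or 3, 3 glycolysis genes rose. The serine synthesis enzymes Phgdh and Psat1 rose by 0.79 and 0.75 within a list of the unfolded protein and integrated stress responses. That list gave 10 higher (38.5%) and 6 lower (23.1%) of 26, near the shares of all genes.

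**Figure D4:**
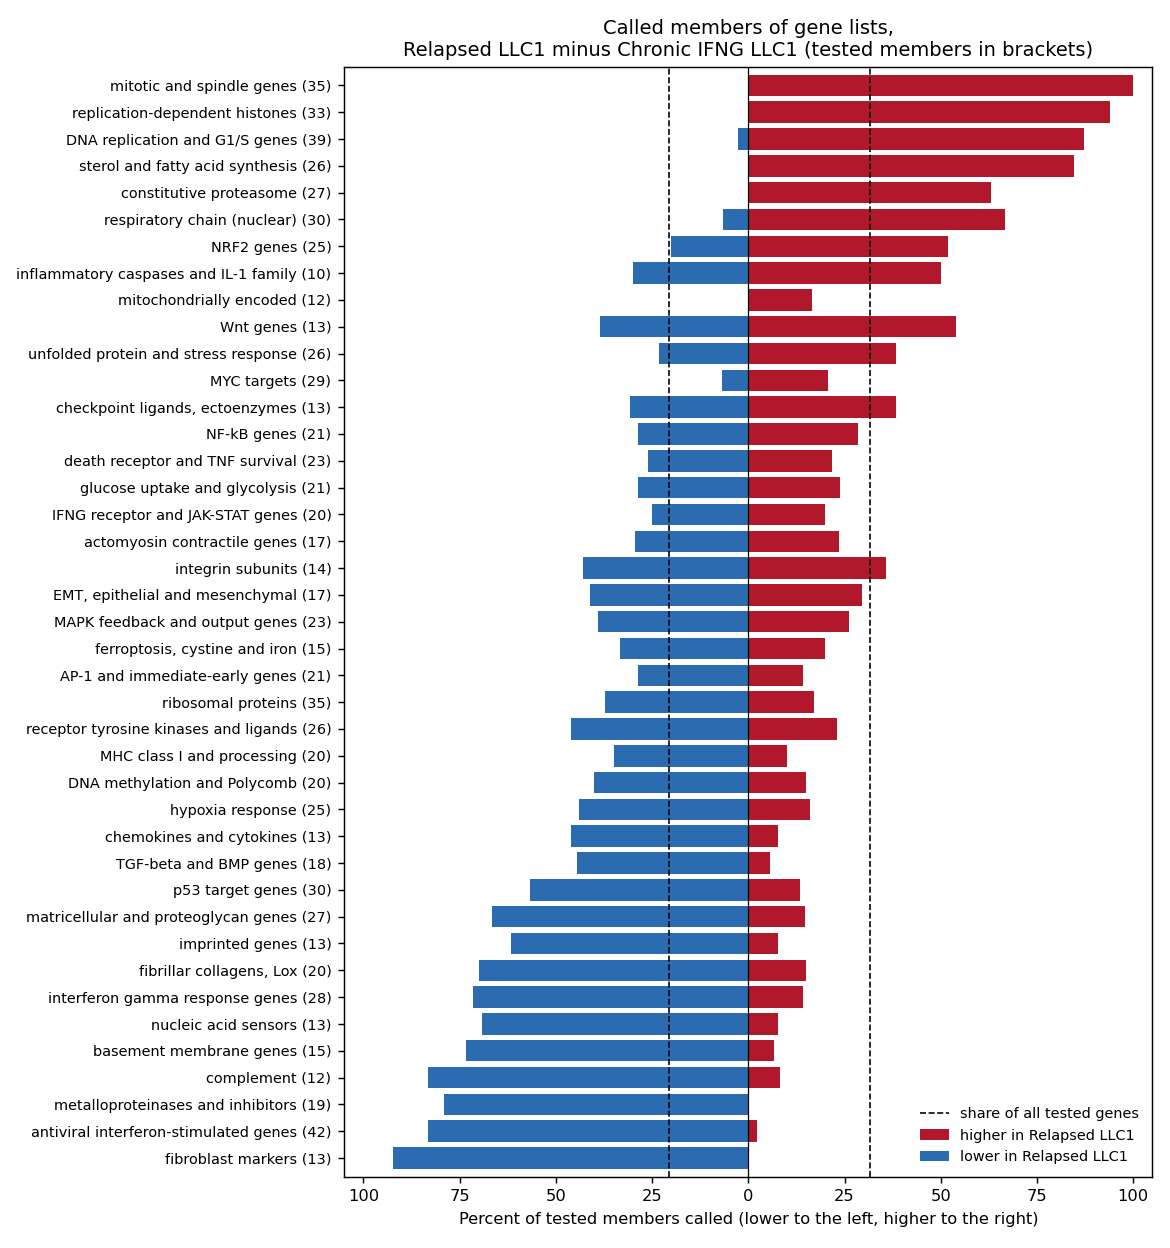
Share of tested members called higher or lower at adjusted p below 0.05, Relapsed LLC1 minus Chronic IFNG LLC1, in each gene list with at least 10 tested members. Bars are percentages and the dashed lines mark the share over all tested genes, 31.5% higher and 20.5% lower. Mitosis, histone and sterol genes reach 100%, 93.9% and 84.6% higher, and the antiviral list reaches 83.3% lower.

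Several of the largest changes were genes that one group hardly expressed. Myh10, the non-muscle myosin IIB heavy chain, had 26.7, 54.1 and 24.6 normalised counts in relapsed libraries, against 1625, 1505 and 1526 in chronic IFNG libraries, 44.2-fold lower (-2.45, adjusted p = 4.35e-09). Efemp1, a matrix protein named after its values were seen, had 11, 35.4 and 17.4 in relapsed libraries and 1174, 1252 and 1259.7 in chronic IFNG libraries, and Agtr2, the second angiotensin II receptor, also named afterwards, had 2.04, 0.847 and 1.97 in relapsed libraries and 1167, 705 and 649 in chronic IFNG libraries. All 3 genes were at high levels in parental tumours too, with 1723, 1707 and 992 normalised counts on average. The actin-binding protein Lsp1 and the Hippo pathway scaffold Amot fell, with log2 differences of -1.96 and -1.96. In the other direction, S100a4, a calcium-binding protein of motile cells, had 26522, 27844 and 27334 in relapsed libraries and 6697, 7127 and 8085 in chronic IFNG libraries, 3.73-fold higher (1.83 ± 0.09 SE, adjusted p = 1.61e-07). Ocln, occludin of tight junctions, had 708, 602 and 669 in relapsed libraries and 75.6, 69.6 and 60.8 in chronic IFNG libraries, 9.61-fold higher. The non-coding RNA Bc1 had 7048, 5398 and 6744 in relapsed libraries and 1488, 1360.2 and 1473 in chronic IFNG libraries. Nptx1, a neuronal pentraxin, Brms1l, a subunit of a histone deacetylase complex, and Syne2, which ties the nucleus to the cytoskeleton, rose by 1.55, 1.43 and 1.27.

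Imprinted genes, which are expressed from a single copy according to its parent of origin, held 2 of the largest falls, H19 and Grb10. H19 (chr7:142575529-142578143), a long non-coding RNA of the fetal growth network, had 51.6, 83.7 and 165 normalised counts in relapsed libraries, against 6736, 4881 and 3529 in chronic IFNG libraries, 50.5-fold lower (-3.52 ± 0.20 SE, adjusted p = 6.12e-07). Grb10 (chr11:11930508-12038683), an adaptor that restrains insulin and IGF receptors, had 45, 56 and 38.2 in relapsed libraries and 2165, 2002 and 1835 in chronic IFNG libraries, 43.1-fold lower (adjusted p = 2.67e-09). The zinc-finger gene Peg3 had 34.8, 47 and 36.6 in relapsed libraries and 519, 506 and 304 in chronic IFNG libraries, 11.2-fold lower. The groups were far apart in each, and for H19 and Grb10 no overlap was a condition of being named among the lowest. Of 13 tested imprinted genes 8 fell and 1, the retrotransposon-derived Peg10, rose (2.02-fold). Among enzymes that write or read DNA and histone methylation, 3 rose and 8 fell of 20; Dnmt1, which copies DNA methylation at replication, was 1.68-fold higher.

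Adhesion and growth factor genes changed by member rather than by list. Integrins gave 5 higher (35.7%) and 6 lower (42.9%) of 14, against 31.5% and 20.5% of all genes. The laminin-binding chains Itga3 and Itga7 rose by 0.99 and 0.99 and Itgb4 was 6.19-fold higher. Itga6 and the fibronectin-binding Itga5 fell (-0.98 and -0.71). Receptor tyrosine kinases and their ligands gave 6 higher (23.1%) and 12 lower (46.2%) of 26. Efna1, an ephrin ligand, was 5.71-fold higher and Met, the hepatocyte growth factor receptor, 1.98-fold higher, whereas the ligands Pdgfc and Areg fell (-0.92 and -0.82). Of TGF-beta and BMP genes 8 of 18 fell and 1 rose, led by the activin chains Inhbb and Inhba (-0.82 and -0.81). In the Wnt list 7 rose and 5 fell of 13, the receptor Fzd6 at 3.66-fold higher and Fzd2 at -0.78; 3 fell without chronic IFNG library 1 or relapsed library 2. The MAP kinase phosphatase Dusp4 fell (-0.91).

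By position, chromosome 3 differed from the rest. Of its 526 tested genes 366 were higher in relapsed tumours (69.6%, against 31.5% of all genes) and 35 lower (6.65%), with a median log2 difference of 0.29. All 8 bins of 20 Mb along it had 57.1% to 78.3% of genes higher. The median for relapsed minus parental tumours on that chromosome was 0.29, and for chronic IFNG minus parental tumours -0.01, both sharing libraries with the comparison. The next highest shares of higher genes were on chromosomes 19 (52.4%), 9 (49.4%), 10 (48.5%) and 15 (45.7%), while chromosomes 11 and 18 each had 38.9% of genes lower. DNA copy number was not analysed here, so dose and regulation cannot be told apart for genes such as S100a4, which lies on chromosome 3.

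**Figure D5:**
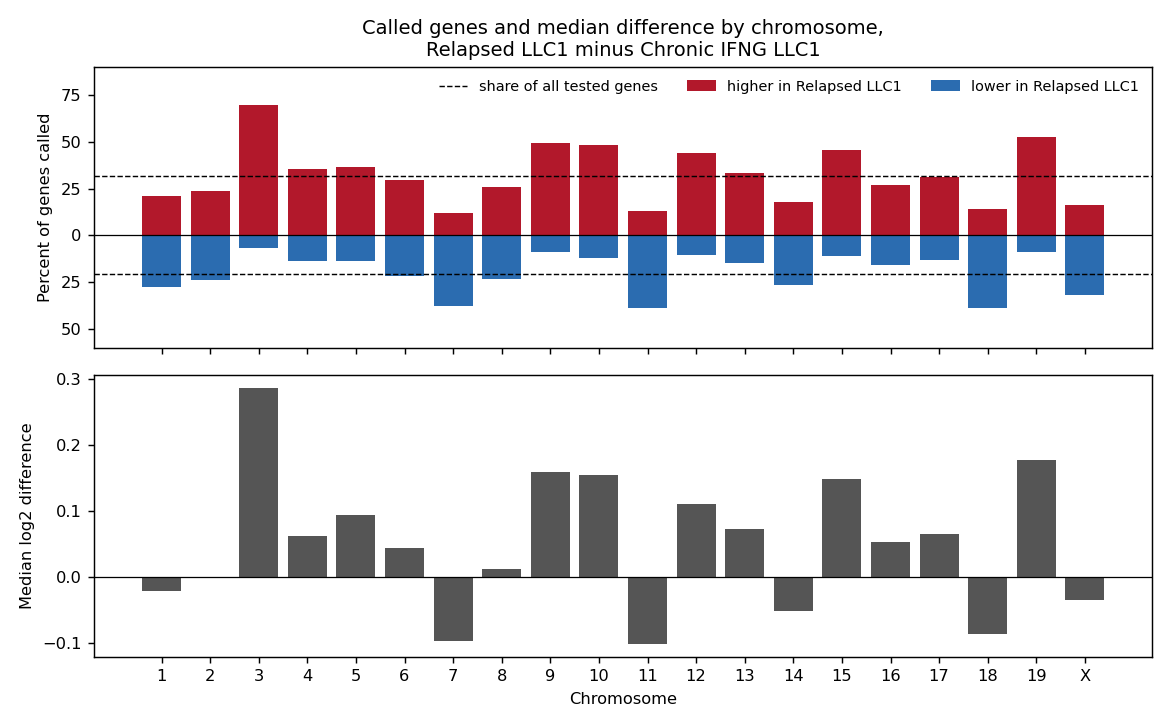
Share of tested genes called higher and lower in Relapsed LLC1 against Chronic IFNG LLC1 tumours on each chromosome, as percentages, with the median log2 difference. Chromosome 3 has 69.6% of genes higher and a median of 0.29.

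Set beside the Parental LLC1 level, most called genes had it between both groups. Of the 3337 genes higher in relapsed tumours, the parental mean was between both group means for 2260 (67.7%), below both for 808 (24.2%) and above both for 269 (8.06%). Of the 2166 lower genes it was between for 1411 (65.1%), above both for 619 (28.6%) and below both for 136 (6.28%). Cilp was one of these 136, with a parental mean of 381 normalised counts, against 505 in relapsed and 4373 in chronic IFNG libraries.

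The KP line offered 3 comparisons of the same form, 1st, 2nd and late relapse minus Chronic IFNG KP, which share their chronic IFNG libraries and were normalised apart from LLC1. Of all KP genes tested, 15.8%, 35.1% and 25.8% were higher and 15.1%, 29.2% and 24.6% lower in the 1st, 2nd and late relapse. Sterol genes gave 12 higher and 2 lower, 26 higher and 0 lower, and 24 higher and 0 lower of 27, beside 22 higher and 0 lower of 26 in LLC1. Mitosis genes gave 18, 25 and 24 higher of 35, with 0, 1 and 0 lower. The antiviral interferon list gave 7 higher and 1 lower, 12 higher and 2 lower, and 6 higher and 4 lower of 24, beside 1 higher and 35 lower of 42 in LLC1. The IFNG response list gave 7 higher and 1 lower, 6 higher and 6 lower, and 2 higher and 4 lower of 20 in KP, with medians of 0.31, -0.04 and -0.16, beside 4 higher and 20 lower of 28 with a median of -0.94 in LLC1. Fibrillar collagens gave 16 higher and 1 lower, 3 higher and 14 lower, and 5 higher and 2 lower of 21. The tested members of a list differ between the lines: Cxcl10, Nos2, Rsad2, Ifit1 and Zbp1, which fell in LLC1, were not tested in KP. The counts and medians therefore do not cover the same genes. No test was made between the lines.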

How the data were processed

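RNA sequencing of sorted tumour cells was deposited as 2 tables of log2 values after a variance-stabilising transformation, 1 per line, which the authors made. Per the submitters' processing notes, cutadapt 2.9, Salmon 1.8.0 and DESeq2 1.34.0 were used with GRCm38/mm10; their settings are not given in the sources used here. Per the labels' protocols, libraries were stranded total RNA, read as paired ends. Tables were normalised separately, so no test was made between lines. Normalised counts were back-calculated from the deposited log2 values under the formula of the parametric transformation, an assumption, with the lowest value of the table as a count of 0. In LLC1 libraries, recovered low values lay within 0.15 reads of whole reads in 73.2% to 77.7% of cases, and in KP libraries in 71.6% to 78.5%. The size of 1 read was chosen in each library to make this share largest. A share of 30% by chance holds for a fixed size only, so it is not the level to compare with here.

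Genes were kept where a group mean was at least 1 log2 unit above the lowest value (10581 of 31618). limma 3.58.1 (R 4.3.3) with an intensity trend was fitted on the deposited log2 values of all 9 LLC1 libraries, with Benjamini-Hochberg adjustment over kept genes; KP was fitted likewise over 15 libraries. Simulated data with known changes were used to check the fit. An exact test of 3 against 3 cannot go below p = 0.1 for a single value. Genes named were the 15 highest and 15 lowest differences without overlap, up to 5 per list and 16 IFNG pathway genes. Those from the extremes had an ordinary symbol and a mean at least 3 log2 units above the lowest value in a group. All other genes given, including those that complete a count or mark a cell type, were named after their values were seen. The 55 gene lists and the genes named were chosen with earlier results of these data known. Some genes that the rule names are not reported here. Gene positions are from GENCODE vM21, and promoters are from RefSeq (GRCm38.p6). Figures were drawn with matplotlib 3.10.9 in Python 3.11.15. Alternatives covered the filter, scaling, trend, weights, threshold, groups fitted, a replicate block, an added count of 10 and each library left out; list counts without chromosome 3 were added after seeing the data.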

Additional observations from a re-analysis of the deposited data

Results flagged for a closer look

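For 17 pairs of a gene list and a KP relapse, all 3 relapsed libraries of LLC1 lay on one side of all 3 of their chronic IFNG libraries and all 3 relapse libraries of KP on the other side of theirs. The measure was each library's median, over the list, of each gene's deviation from its mean in the chronic IFNG libraries of that line, in log2 units. Values are the mean of this measure over relapse libraries minus its mean over chronic IFNG libraries. The lines were normalised separately, the tested members of a list differ between them, and the difference between the lines was not tested. The KP pairs share their chronic IFNG libraries. Only pairs with opposite directions are listed, and some of these lists moved as in LLC1 in another relapse. Hypoxia genes gave 0 higher and 17 lower of 26 in 1st relapse KP. In 2nd relapse KP, matricellular genes gave 3 higher and 19 lower of 29, and complement genes 1 higher and 7 lower of 12. The number of pairs that moved alike is not given here.

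For antiviral interferon-stimulated genes, the value was -0.56 in LLC1, beside 0.16 in 1st relapse KP and 0.20 in 2nd relapse KP. For IFNG receptor and signalling genes it was -0.072 in LLC1 and 0.049 in 1st relapse KP, for nucleic acid sensors -0.28 and 0.25, and for chemokines and cytokines -0.32 and 0.29. Matrix lists moved apart in the 1st KP relapse: fibrillar collagens had -0.83 in LLC1 and 0.71 in KP, and matricellular proteins -0.69 and 0.27. Complement genes had -0.72 in LLC1 and 0.30 in 1st relapse KP. Matrix proteases had -0.54 in LLC1, beside 0.21 in 1st relapse KP and 0.27 in late relapse KP. TGF-beta and BMP genes had -0.22 in LLC1, beside 0.14 in 1st relapse KP and 0.13 in late relapse KP.

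In 2nd relapse KP the differing lists were p53 targets, at -0.28 in LLC1 and 0.10 in KP, hypoxia genes, at -0.22 and 0.37, Wnt genes, at 0.22 and -0.24, and retinoid genes, at 0.16 and -0.12. Histone genes had 0.87 in LLC1 and -0.24 in late relapse KP.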

How the results depend on the processing

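Of 242 named and tested genes, 221 kept their direction and side of the threshold in every alternative; over 4256 pairs of gene and alternative, 4183 were the same, 45 lost the call, 18 gained it and 10 changed sign. The sign changes were in genes not called under the settings of the report. Cd68 changed sign under array weights (0.012) and quantile normalisation (0.047) and ranged from -0.065 to 0.054 with 1 library left out. Fabp4 changed sign under quantile normalisation (0.071) and was called lower under median centring (-0.19), with an added count of 10 (-0.65) and without Parental LLC1 replicate 3 (-0.15). With 1 library left out, Jak2 ranged from -0.078 to 0.018, B2m from -0.36 to 0.068, H2-D1 from -0.089 to 0.35 and Psmb8 from -0.24 to 0.029. A filter of 3 log2 units kept fewer genes, and 1907 were called, 1175 higher and 732 lower. A threshold of 1 log2 unit left 222 calls, 68 higher and 154 lower. With no filter 3500 were higher and 3998 lower. Quantile normalisation gave 2906 higher and 2547 lower, array weights 3629 and 2311, no trend 3337 and 2161, and a fit on the 2 groups alone 3268 and 2123. Leaving out 1 library gave 2852 to 3346 higher and 1791 to 2177 lower.

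Deviations of same-numbered libraries correlated at 0.08, 0.03 and 0.05, beside -0.11 to 0.07 for libraries with different numbers. With 3 libraries a group, these values cannot settle whether replicate numbers pair the libraries. With a replicate block, 3262 genes were higher and 2107 lower, 5369 in all. Within the comparison, the chronic IFNG libraries were shallower than the relapsed ones.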

Other observations

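Calcium-binding S100 genes sit close together on mouse chromosome 3. Of 9 tested S100 genes 5 were higher in relapsed tumours and 2 lower; with the genes of chromosome 3 left out, 1 was tested and 0 were higher. Regulators of the epithelial state gave 5 higher and 7 lower of 17: the keratins Krt18 and Krt8 rose as given above, and the transcription factors Zeb1, Zeb2, Snai1 and Snai2, which repress epithelial genes, fell by small amounts (-0.42, -0.20, -0.32 and -0.18), all 4 named after their values were seen. Of the prostaglandin synthases, the inducible cyclooxygenase Ptgs2 fell, at 2647, 3284 and 3977 normalised counts in relapsed libraries and 6034, 7151 and 7855 in chronic IFNG libraries (-0.99), and the constitutive form Ptgs1 rose, at 5120.1, 5281 and 5474 in relapsed libraries and 2841, 2996 and 3083 in chronic IFNG libraries (0.74). Genes of death receptor signalling gave 5 higher (21.7%) and 6 lower (26.1%) of 23, against 31.5% and 20.5% of all genes. The survival factor Mcl1 was higher (0.51). Cytosolic ribosomal protein genes gave 6 higher and 13 lower of 35, and 3 higher without chronic IFNG library 1 or relapsed library 2 or 3. Targets of Myc gave 6 higher and 2 lower of 29, and 11 higher without chronic IFNG library 3.

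Among small RNA genes, Rnu3b1, a copy of the U3 small nucleolar RNA, had 8356, 6869.7 and 6679 normalised counts in relapsed libraries and 0, 8325 and 0 in chronic IFNG libraries, so that 1 chronic IFNG library matched the relapsed ones, and reads may be shared with other U3 copies. The haemoglobin gene Hbb-bs had 37.1, 181 and 423 normalised counts in relapsed libraries, against 13.2, 16.1 and 2.63 in chronic IFNG libraries, and summed red cell markers were 23.5 to 56.1 CPM in relapsed libraries and 11.8 to 14.9 in chronic IFNG libraries. Itgb2, an integrin chain of leukocytes, had 1628, 1649 and 1778 in relapsed libraries and 504, 567 and 494 in chronic IFNG libraries, a difference of which the part due to leukocytes was not tested. Macrophage markers summed to 31.4 to 53.8 CPM in relapsed libraries and 22.6 to 24.8 in chronic IFNG libraries, and T and natural killer cell markers to 0.657 to 1.02 in relapsed libraries and 1.38 to 3.19 in chronic IFNG libraries.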
